A study of Mus musculus with 18 samples.

Results

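The RNA of GFP+ve colon epithelial cells from heterozygous (HE) *Olfr78*-GFP mice was compared with the RNA of the general colon epithelium of a wild-type (WT) mouse. Genes were taken when they had at least 40 CP20M (reads scaled to 20000000 per library) in 2 or more of the 4 libraries, and 16355 of the 52636 genes in the table met this rule. Of these, 12418 passed in all 4 libraries, 952 passed through the HE libraries alone and 519 through the Epcam+ve libraries alone. The HE mice carried 1 intact *Olfr78* allele and 1 allele in which GFP-IRES-tauLacZ had taken the place of the coding exon (B6;129P2 background), so that GFP marked cells in which the *Olfr78* promoter was active. The HE libraries were 2 pools of sorted Epcam+ve/GFP+ve cells, each pool from 2 mice. By the methods of the study the 2 pools held unequal numbers of cells. The control libraries were 2 samples of Epcam+ve cells from 1 WT mouse with both alleles intact, which the titles of the archive call GFP-ve. All cells came from crypts of mice aged 4 to 7 months, by the methods of the study, and none was treated. The control samples carry no spread between mice, and p-values measure the spread between these pools and samples, which may in part be technical. The sort, the genotype and the animals differed together between the groups and cannot be told apart.

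Reads on genes, recovered from the scaled values, numbered 1946872 to 2237474 in the Epcam+ve libraries and 1499832 to 1738117 in the HE libraries. One read was worth between 8.94 and 13.3 CP20M, so that a gap of a few reads could not be detected. Between 20896 and 22105 genes had a read in each library, and 9.92% to 14.8% of the values fell on mitochondrially encoded genes. The label for the cell subtype reads enteroendocrine for all 4 libraries, the Epcam+ve libraries included. The enteroendocrine markers *Chga*, *Tph1* and *Neurod1* were high only in the HE libraries, while the Epcam+ve libraries carried the mucin *Muc2* at 267309 and 217519 CP20M and the colonocyte gene *Car1* at 75147 and 66795 CP20M, together with low levels of the enteroendocrine genes. The markers therefore went with the label of the HE libraries and not with that of the Epcam+ve libraries, which are called the general epithelium here. *Epcam* itself, the marker used in the sort, had 17189 and 16581 CP20M in the Epcam+ve libraries and 12623 and 11668 in the HE libraries.

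Enteroendocrine cells (EECs) are scattered hormone-releasing cells of the gut epithelium. They store peptide hormones or amines in dense-core granules, sense the content of the gut and release the granules when calcium enters the cell. In the colon the main kinds are enterochromaffin (EC) cells, which make serotonin with the enzyme TPH1, and L cells, which make proglucagon peptides, PYY and INSL5. EECs arise from crypt progenitors through transcription factors of the *Neurod1* kind. *Olfr78* encodes a receptor of the odorant family that binds short-chain fatty acids.

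The promoters of 4 genes are shown because the results turn on them, the granule proteins *Chgb* and *Chga*, the prohormone convertase *Pcsk1* and the serotonin enzyme *Tph1*. Each run is the 250 bases before the RefSeq transcription start in GRCm38.p6, read on the strand of the gene, at chr2:132781392-132781641 on the plus strand for *Chgb*, chr13:75089607-75089856 on the plus strand for *Pcsk1*, chr12:102554691-102554940 on the plus strand for *Chga* and chr7:46672538-46672787 on the minus strand for *Tph1*. *Tph1* had 2 RefSeq promoters, and only the most upstream is shown. Capitals mark TGACGTCA, the cyclic AMP response element, which reads the same on both strands, and TATAAA, the TATA box, searched on both strands.
Chgb: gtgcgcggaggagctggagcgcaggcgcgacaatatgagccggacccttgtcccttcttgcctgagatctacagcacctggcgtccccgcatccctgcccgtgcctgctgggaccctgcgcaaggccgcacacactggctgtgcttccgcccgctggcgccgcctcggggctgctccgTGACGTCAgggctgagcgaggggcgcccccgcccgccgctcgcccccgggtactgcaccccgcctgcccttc
Pcsk1: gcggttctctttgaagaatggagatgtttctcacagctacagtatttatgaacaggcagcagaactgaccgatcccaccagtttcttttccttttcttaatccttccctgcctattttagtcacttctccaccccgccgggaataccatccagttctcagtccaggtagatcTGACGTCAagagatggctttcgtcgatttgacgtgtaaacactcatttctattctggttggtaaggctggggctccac
Chga: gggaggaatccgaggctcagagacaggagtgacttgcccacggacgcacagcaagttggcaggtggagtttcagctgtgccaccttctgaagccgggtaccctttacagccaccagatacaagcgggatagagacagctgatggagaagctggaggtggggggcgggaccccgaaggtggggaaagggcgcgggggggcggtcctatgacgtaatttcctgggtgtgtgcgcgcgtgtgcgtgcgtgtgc
Tph1: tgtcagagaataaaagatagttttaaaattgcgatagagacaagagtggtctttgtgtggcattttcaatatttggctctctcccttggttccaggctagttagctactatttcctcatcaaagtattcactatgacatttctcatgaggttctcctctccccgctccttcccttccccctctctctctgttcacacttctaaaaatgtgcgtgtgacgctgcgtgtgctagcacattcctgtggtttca
The response element stood at bases -72 to -65 of *Chgb* and at -78 to -71 of *Pcsk1*, counted from the transcription start. The windows of *Chga* and *Tph1* did not hold these exact letters, and none of the 4 windows held TATAAA. The search took exact matches only, and the *Chga* window holds tgacgtaa, which differs from the element at 1 base. Among the 259 genes called higher below, 182 had promoters in the table, and 10 of these (5.49%) held the element in at least 1 promoter, *Celf3*, *Chgb*, *Clstn2*, *Cpb2*, *Kif5c*, *Otud7a*, *Pcsk1*, *Peg3*, *Ptpru* and *Rap1b*. The share was 3.08% of the 10294 genes of the comparison with a promoter and 1.77% of all 27025 genes in the table. TATAAA was present for 11.5% of the genes called higher, 8.32% of the genes of the comparison and 14.3% of all genes. These matches are descriptions of letters and say nothing of binding.

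A gene was called when limma gave an adjusted p under 0.001 and a log2 fold change beyond 2 in size, on the scale log2(CP20M + 10), which understates the change of low genes. Of the 16355 genes, 259 (1.58%) were called higher and 28 (0.171%) lower in the HE libraries. Log2 fold changes ran from 2.02 to 8.43 for the genes called higher, with a median of 4.68, and from -4.72 to -2.09 for those called lower, with a median of -2.83. The median over all 16355 genes was -0.05. The genes called higher took 8.25% and 10.3% of the values of the HE libraries and 0.429% and 0.386% of those of the Epcam+ve libraries. Protein-coding genes made up 246 of the 259 and 26 of the 28. All HE pools lay above both Epcam+ve libraries for 4977 genes (30.4%) and below them for 5407 (33.1%), so that a lack of overlap alone says little with 2 libraries a group, and an exact two-sided permutation test of 2 against 2 cannot go below p = 0.333. On recovered reads, edgeR (quasi-likelihood) called 582 genes (3.56%) higher and 175 (1.07%) lower, and these included every gene called by limma. These shares of all genes are the background for the counts of each list below. Log2 fold changes were above 0 for 7796 of the 16355 genes. The 952 genes that passed through the HE libraries alone lie above by the filter, and the 519 of the Epcam+ve libraries alone lie below. How many of these each list holds is not given here. Part of the direction of a list may thus follow from the filter. Without Epcam+ve sample 1, Epcam+ve sample 2, HE pool 1 and HE pool 2 in turn, limma called 357, 307, 428 and 332 genes higher and 14, 10, 767 and 191 lower. Each of these fits leaves 1 library in a group and takes the spread from the other group alone, which without an HE pool is the spread between samples of 1 mouse. The counts are totals, and in each of these fits part of the 259 genes was not among those called higher. Fewer genes were called with a pseudocount of 1 (72 higher and 5 lower), with all 6 sorted libraries in 1 fit (113 and 4) and without a trend of the spread (0 and 0, with 5289 genes at an unadjusted p under 0.05 from limma).

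**Figure D1:**
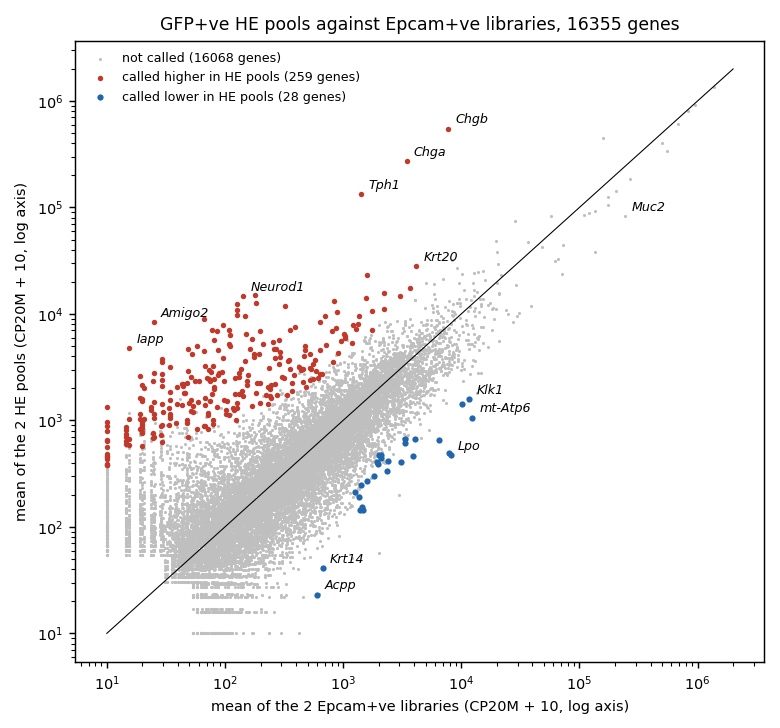
Mean of the 2 Epcam+ve libraries (x axis) against mean of the 2 HE pools (y axis), both in CP20M + 10 on log axes, with 1 point for each of 16355 genes. The 259 red points (called higher) reach far above the line of equality and end in *Chgb*, *Chga* and *Tph1*, while the 28 blue points (called lower) lie closer to the line.

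The label markers came first. *Chga* (ENSMUSG00000021194, chromosome 12, 102554969 to 102565028 in GRCm38), a granule protein found in all EECs, stood at 242823 and 304540 CP20M in the HE libraries against 3504 and 3380 in the Epcam+ve libraries. *Tph1* (ENSMUSG00000040046, chromosome 7, 46644641 to 46672537), which makes the precursor of serotonin, stood at 120152 and 147883 against 1484 and 1346. *Neurod1* (ENSMUSG00000034701, chromosome 2, 79452521 to 79456751), a basic helix-loop-helix transcription factor of EECs, stood at 12382 and 17016 against 152 and 114. Both HE pools exceeded both Epcam+ve libraries by far for all 3 genes, with log2 fold changes of 6.30 (SE 0.20), 6.55 (SE 0.18) and 6.68 (SE 0.24) and adjusted p from limma of 2.6e-06, 2.6e-06 and 4.9e-06. In bulk samples, fewer cells of a type and less RNA per cell cannot be told apart, and this holds for every level below.

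Proteins of the dense-core granule and enzymes that cut and amidate prohormones were almost all higher in the HE libraries. Of 16 genes listed, 14 were measured above the filter, 13 were called higher and 1 was not called, with a median log2 fold change of 6.06. Together the list took 3.89% and 5.07% of the HE libraries and 0.0797% and 0.0783% of the Epcam+ve libraries. *Pcsk1n*, which encodes an inhibitor of prohormone convertase 1, had the largest change of the list, from 72 and 42 CP20M to 6881 and 10882 (log2 fold change 7.05, SE 0.33, adjusted p = 1.1e-05 from limma). The convertase itself, *Pcsk1*, started from 653 and 607 CP20M in the Epcam+ve libraries and reached 4937 and 4148 in the HE libraries, a log2 fold change of only 2.83 (SE 0.20, adjusted p = 7.4e-05 from limma). The Epcam+ve libraries thus held little of the inhibitor and more of its enzyme. Which of their cells gave these reads was not tested. *Pcsk2*, the other main convertase of endocrine cells, had no read in any of the 4 libraries.

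Other members of the granule list followed the same order. *Resp18*, a granule protein of endocrine cells, was at 81 and 93 CP20M in the Epcam+ve libraries and at 5731 and 10055 in the HE libraries. *Cpe*, the carboxypeptidase that trims prohormone fragments, rose from 108 and 124 to 9988 and 9682 CP20M. *Pam*, the amidating enzyme, rose from 1636 and 1470 to 13463 and 14575 CP20M. The groups did not overlap for these genes, and the log2 fold changes were 6.29, 6.29 and 3.17. *Cadps*, which primes dense-core granules for fusion, was called at 6.47, while its paralogue *Cadps2* was at 1127 and 1018 CP20M in the Epcam+ve libraries and 1174 and 961 in the HE libraries, with overlap between the groups. *Scg2*, another granin, did not pass the filter, with 219 CP20M in HE pool 1 and 27 in pool 2.

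**Figure D2:**
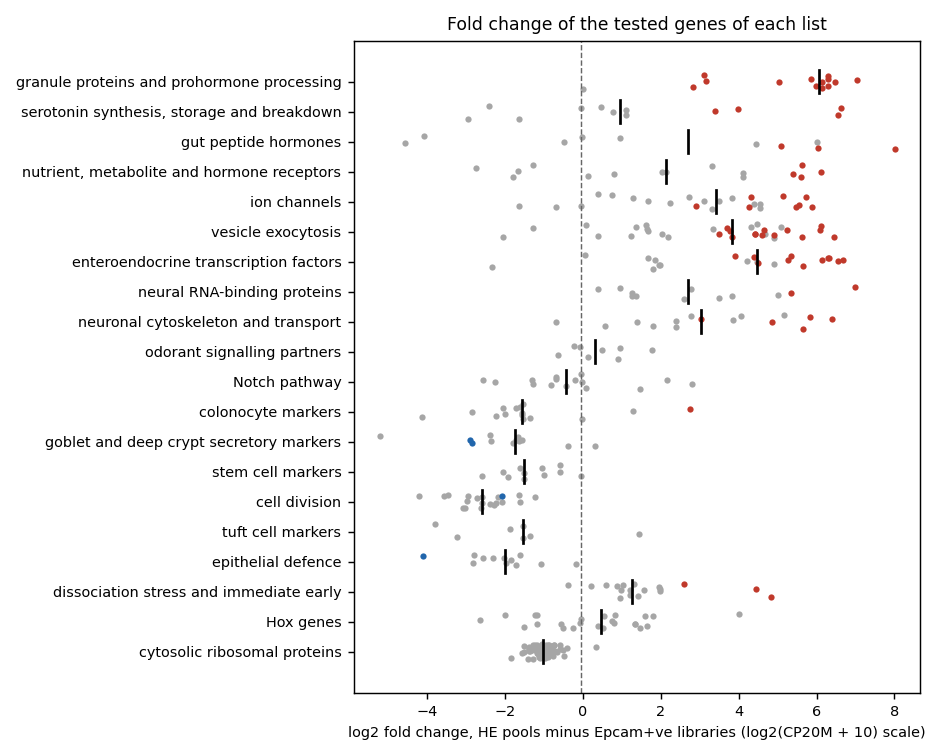
Log2 fold change (HE pools minus Epcam+ve libraries, on the log2(CP20M + 10) scale) of each tested gene in 20 lists, 1 point a gene, red where called higher and blue where called lower. The black bar is the median of the list and the dashed line the median of all 16355 genes, -0.05. Granule, exocytosis, channel and transcription factor genes lie to the right, and cell division, defence, goblet and ribosomal genes to the left.

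Serotonin genes did not move as 1 group. Of 12 tested, limma called 4 higher and 8 not, edgeR called 4 higher and 1 lower, and the median log2 fold change was 0.94. *Ddc*, which completes the synthesis of serotonin, rose from 733 and 915 to 12715 and 13575 CP20M (log2 fold change 3.99). *Gch1*, the entry enzyme of the cofactor that TPH1 needs, rose from 90 and 144 to 1105 and 1507 CP20M (log2 fold change 3.39, SE 0.36, adjusted p = 6.5e-04 from limma). The other enzymes of that cofactor, *Pts*, *Spr*, *Qdpr* and *Pcbd1*, were not called, with log2 fold changes from -1.65 for *Spr* to 1.11 for *Qdpr*.

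The 2 vesicular monoamine transporters, which load serotonin into granules, differed in their values. *Slc18a1* (VMAT1) had 11921 and 12855 CP20M in the HE libraries and 117 and 114 in the Epcam+ve libraries, a log2 fold change of 6.62 (SE 0.20, adjusted p = 2.6e-06 from limma). *Slc18a2* (VMAT2) had 185 and 374 CP20M in the HE libraries and 179 and 124 in the Epcam+ve libraries, and was not called (log2 fold change 0.78, SE 0.49, adjusted p = 0.291 from limma). Breakdown and reuptake genes were called by limma in neither direction. *Maoa*, which degrades serotonin, was at 10190 and 10469 CP20M in the Epcam+ve libraries and at 3591 and 1041 in the HE libraries. The HE pools differed several-fold for *Maoa*, and edgeR called it lower (adjusted p = 6.0e-04) while limma did not (adjusted p = 0.00822). *Slc6a4*, the serotonin reuptake transporter of epithelial cells, had 224 and 134 CP20M in the Epcam+ve libraries and 47 and 0 in the HE libraries, and was not called. *Maob*, another degrading enzyme, had 358 and 350 CP20M in the Epcam+ve libraries and 794 and 747 in the HE libraries, and was not called either.

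Hormone genes showed that the 2 HE pools were not alike. Of 22 peptide hormone genes listed, 10 were tested, limma called 3 higher and 7 not, edgeR called 5 higher and 1 lower, with a median log2 fold change of 2.69. *Sct* (secretin) rose from 278 and 350 CP20M to 7319 in HE pool 1 and 16336 in pool 2 (log2 fold change 5.09, SE 0.35, adjusted p = 6.2e-05 from limma). *Tac1*, the substance P precursor found in EC cells, rose from 54 and 144 to 4327 and 9708 CP20M (log2 fold change 6.03, SE 0.48). *Iapp* (ENSMUSG00000041681, chromosome 6, 142298423 to 142303961), which encodes amylin and is best known from pancreatic beta cells, had 0 and 11 CP20M, that is 0 and 1 read, in the Epcam+ve libraries and 1773 and 7788 in the HE libraries (log2 fold change 8.01, SE 0.70, adjusted p = 2.5e-04 from limma). All 3 were higher in pool 2.

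The L cell hormones ran in the opposite order between the pools. *Pyy* had 5017 CP20M in HE pool 1 and 681 in pool 2, *Insl5* had 1899 and 441, and *Gcg* 1600 and 401. These were called higher by edgeR alone for *Pyy* and *Insl5* and by neither test for *Gcg*, whose groups overlapped. Among the other hormones edgeR called 1 lower. *Sst*, the hormone of D cells, had 260 and 196 CP20M in the Epcam+ve libraries and no read in either HE pool, at least 6.12-fold lower against the value of 3 reads per library (adjusted p = 8.2e-04 from edgeR, 0.00225 from limma). *Nts* (neurotensin) had 188 and 134 CP20M against no read in either pool, at least 4.32-fold lower, and was called by neither test (adjusted p = 0.00376 from limma). *Ghrl* overlapped, at 72 and 42 against 70 and 41 CP20M. *Gip*, *Vip*, *Npy*, *Calca* and *Nmu* had no read in any of the 4 libraries.

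**Figure D3:**
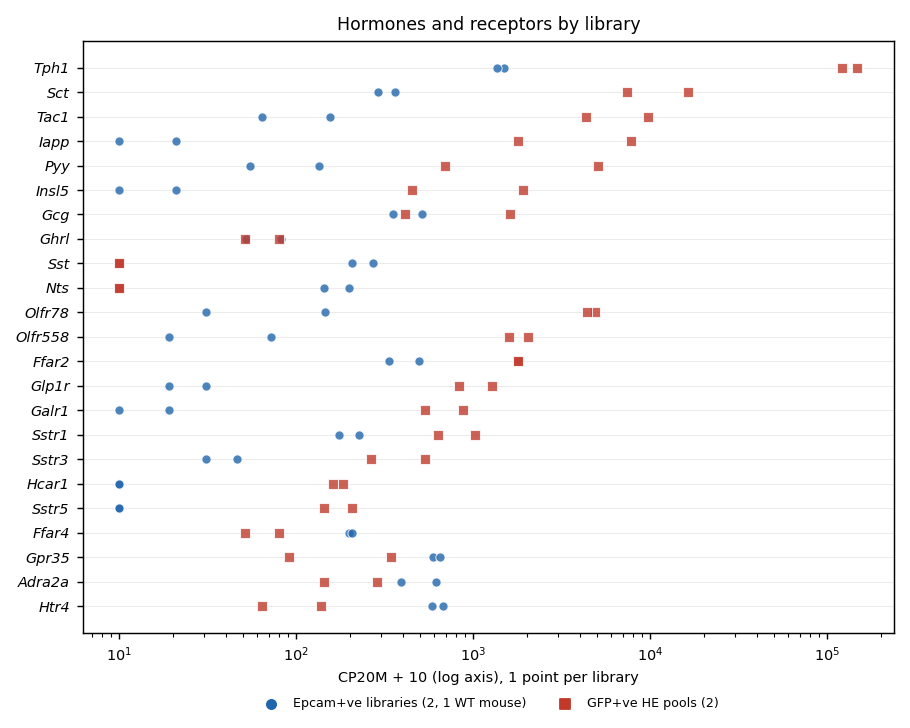
CP20M + 10 on a log axis for hormone genes with *Tph1* (upper rows) and receptor genes (lower rows), 1 point per library, blue circles for the 2 Epcam+ve libraries and red squares for the 2 HE pools. The HE pools lie close together for *Tph1* and *Olfr78* and apart for *Pyy*, *Insl5*, *Gcg* and *Iapp*, and both are at 0 for *Sst* and *Nts*.

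**Figure D4:**
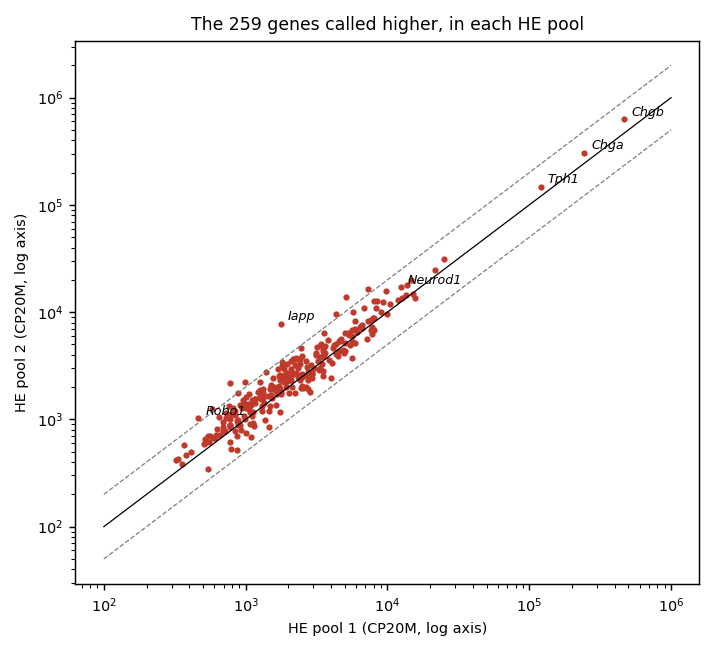
CP20M in HE pool 1 against HE pool 2 on log axes for the 259 genes called higher, with the line of equality (solid) and a 2-fold difference (dashed). All but 8 genes lie between the dashed lines, and *Iapp* lies farthest outside them.

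Of the 259 genes called higher, 8 differed more than 2-fold between the pools on the log2(CP20M + 10) scale, against 3205 (19.6%) of all 16355 genes. A small spread between the pools is part of what the call requires, so that the low count follows from the choice of genes. The 8 were *Iapp*, *Ambp*, *Cacna2d1*, *Tac1*, *Sct*, *Tm4sf4*, *Robo1* and *Astn2*, and each was higher in pool 2. Among the 582 genes called higher by edgeR, 39 differed more than 2-fold. *Ambp*, a plasma protease inhibitor precursor, had 771 and 2174 CP20M in the pools and 9 and 21 in the Epcam+ve libraries. *Cacna2d1*, an auxiliary subunit of calcium channels, had 5109 and 13895 against 99 and 175. With 2 pools of 2 mice each, whether such gaps come from the animals, the number of cells or the sort was not tested.

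Receptors for nutrients and hormones included 15 tested genes of 27 listed, of which limma called 4 higher and 11 not, and edgeR called 7 higher and 1 lower, with a median log2 fold change of 2.15. The receptor that defined the sort, *Olfr78* (chromosome 7, 102738511 to 102759471), had 4822 and 4401 CP20M in the HE libraries and 135 and 21 in the Epcam+ve libraries, and values per gene cannot show which of the 2 alleles a read came from. *Glp1r*, the GLP-1 receptor, rose from 9 and 21 to 817 and 1267 CP20M (log2 fold change 5.40, SE 0.52, adjusted p = 3.9e-04 from limma). *Galr1*, a galanin receptor, rose from 9 and 0 to 863 and 521 CP20M (log2 fold change 5.63, SE 0.61, adjusted p = 7.3e-04 from limma). The inhibitory somatostatin receptors *Sstr1* and *Sstr3* were called by edgeR alone, at 622 and 1014 CP20M against 215 and 165 and at 254 and 521 against 36 and 21. *Htr4*, a serotonin receptor, was the 1 member called lower by edgeR (662 and 576 CP20M in the Epcam+ve libraries, 127 and 54 in the HE libraries, adjusted p = 4.3e-04). *Hcar1*, the lactate receptor, and *Sstr5* were without a read in the Epcam+ve libraries, with 134 to 196 CP20M in the HE libraries, and were called by neither test. The receptors of long-chain fatty acids and of tryptophan metabolites, *Ffar4* and *Gpr35*, had lower values in both HE pools and were not called.

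Ion channels make a cell electrically excitable. Of 24 tested among 37 listed, 8 were called higher by limma (13 by edgeR) and 16 were not called, 3 log2 fold changes were below 0, with a median log2 fold change of 3.41. *Scn3a*, a voltage-gated sodium channel, rose from 224 and 155 to 6433 and 7308 CP20M (log2 fold change 5.13, SE 0.25, adjusted p = 1.1e-05 from limma). The pore subunits of P/Q-type and T-type calcium channels, *Cacna1a* and *Cacna1h*, rose from 421 and 268 to 7733 and 6241 and from 421 and 350 to 7767 and 7255 CP20M. Among L-type subunits, *Cacna1c* was called by edgeR alone and *Cacna1d* by neither test, at 278 and 175 against 300 and 481 CP20M. Potassium channels called higher were *Kcnb2*, *Kcnc1* and *Kcnh6*, with log2 fold changes of 5.54, 5.47 and 5.73.

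Channels known from studies of EC cells as sensors were low or uneven. *Trpa1*, the irritant sensor, had no read in any of the 4 libraries. *Piezo2*, the touch sensor of EC cells, had 18 and 31 CP20M in the Epcam+ve libraries, 725 in HE pool 1 and 147 in pool 2, and was not called (log2 fold change 3.33, SE 0.77, adjusted p = 0.0168 from limma). *Scn8a* had no read in the Epcam+ve libraries and 265 and 187 CP20M in the HE libraries, and was called by edgeR alone. *Kcnj11*, the pore of the ATP-sensitive potassium channel, was at 0 or 1 read in each library, and its partner *Abcc8* overlapped between the groups at 81 and 93 against 162 and 41 CP20M.

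The machinery of regulated exocytosis was higher in the HE libraries in 27 of 31 tested genes without overlap, against 30.4% of all genes. Any of the 27 that passed the filter through the HE libraries alone lay above by that choice. Limma called 14 of the 31 higher and edgeR 21, against 1.58% and 3.56% of all genes. The median log2 fold change was 3.84. *Rab3c*, a small GTPase of secretory vesicles, rose from 152 and 83 to 9229 and 12562 CP20M (log2 fold change 6.46, SE 0.31, adjusted p = 1.1e-05 from limma). Its paralogue *Rab3d* was at 1654 and 1521 against 1439 and 1961 CP20M and was not called. The calcium sensors *Syt7* and *Syt13* rose from 778 and 617 to 8297 and 11015 and from 81 and 52 to 2923 and 2747 CP20M. *Syt1* and *Syt4* had no read in any library. *Sytl4* (granuphilin) and *Rab27b* had lower values in both HE pools, at 81 and 81 against 465 and 288 CP20M and at 553 and 574 against 1565 and 1223, and neither was called.

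Transcription factors of EECs were called higher for 11 of 21 tested genes (14 by edgeR), with a median log2 fold change of 4.48 and 10 not called by limma. *Fev*, which serotonin-making neurons also use, rose from 9 and 11 to 1266 and 1894 CP20M (log2 fold change 6.29, SE 0.47, adjusted p = 1.0e-04 from limma). *Lmx1a*, another factor of serotonin-making cells, rose from 135 and 62 to 4718 and 5601 CP20M. *Nkx2-2*, a homeodomain factor of endocrine cells, rose from 18 and 21 to 1922 and 2254 CP20M. *Runx1t1*, a corepressor, rose from 36 and 42 to 3821 and 5548 CP20M. The zinc finger factors *Insm1*, *Myt1* and *St18* and the homeodomain factor *Prox1* were called with log2 fold changes of 6.33, 5.34, 3.90 and 4.50. The groups did not overlap for any of these genes.

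Several factors of the list were not called by limma. *Neurog3*, the transient factor that starts the endocrine program, had 24 and 0 CP20M in the HE libraries and 9 and 0 in the Epcam+ve libraries, below the filter. *Isl1* stayed at 18 to 27 CP20M in all 4 libraries. *Rest*, the repressor of neuronal genes, had 1055 and 1233 CP20M in the Epcam+ve libraries and 484 and 94 in the HE libraries (log2 fold change -2.34, SE 0.62, adjusted p = 0.0273 from limma), and was not called by either test. *Sox4* had 1449 and 1593 CP20M against 5167 and 5881 in the HE libraries, at an adjusted p of 4.3e-04 from limma, but its log2 fold change of 1.85 was under 2.

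Neuronal RNA-binding and cytoskeletal genes moved the same way in part. All 12 tested RNA-binding genes had positive log2 fold changes, against 7796 of all 16355 genes. Of the 12, 2 were called (4 by edgeR), and the median was 2.69. *Celf3*, a splicing regulator of neurons, rose from 18 and 21 to 3855 and 3601 CP20M (log2 fold change 6.99, SE 0.34, adjusted p = 1.1e-05 from limma). *Elavl3*, an RNA-stabilising protein of neurons, rose from 0 and 11 to 553 and 614 CP20M. Both genes passed the filter through the HE libraries alone, which fixed their direction. Of 15 tested cytoskeletal genes, 5 were called (8 by edgeR), with a median of 3.04. *Kif1a*, the kinesin that carries dense-core vesicles, rose from 99 and 103 to 6134 and 6548 CP20M (log2 fold change 5.84, SE 0.23, adjusted p = 6.8e-06 from limma). *Tubb3* and *Uchl1*, common markers of neurons, were at 41 CP20M or less in each library.

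Among all 259 genes called higher, *Amigo2* (ENSMUSG00000048218, chromosome 15, 97244125 to 97247287), a cell adhesion protein, had the largest fold change, from 9 and 21 CP20M to 7882 and 8895 (log2 fold change 8.43, SE 0.34, adjusted p = 7.5e-06 from limma). *Gsdma*, a pore-forming gasdermin, rose from 18 and 0 to 1796 and 3454 CP20M (log2 fold change 7.22, SE 0.60). *Wif1*, a secreted inhibitor of Wnt proteins, rose from 63 and 72 to 5915 and 8228 CP20M (log2 fold change 6.50, SE 0.27, adjusted p = 8.2e-06 from limma). *Cpb2*, a carboxypeptidase of plasma, rose from 18 and 21 to 2440 and 4614 CP20M, and *Celsr3*, a cadherin of neurons, from 0 and 21 to 2233 and 1774. Both Epcam+ve libraries were at 2 reads or fewer for *Amigo2*, *Gsdma*, *Cpb2* and *Celsr3*, so that the fold changes of these genes rest on few control reads.

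No read was found in either Epcam+ve sample for 213 of the 16355 genes, all of which had to pass the filter through the HE libraries. Limma called 14 of them and edgeR 46. The highest in the HE libraries after *Tnr* were *Efcab1*, a calcium-binding protein, at 840 and 1094 CP20M, *Fam20c*, the kinase of secreted proteins, at 933 and 801, and *Ccdc136* at 863 and 707. Against the value of 3 reads per library they were at least 33.6-fold, 30.1-fold and 27.2-fold higher. In the other direction, 72 genes had reads in the Epcam+ve libraries and none in either HE pool.

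The 28 genes called lower fell into a replication group, a mitochondrial group and single genes, a grouping made after their values were seen. The first held 9 genes of DNA replication, chromatin and histones, among them *Mcm6*, *Hells*, *Atad2*, *Hmgb2* and *Hist1h1b*. *Hells*, a chromatin remodeller of dividing cells, fell from 1314 and 1398 CP20M to 185 and 174 (log2 fold change -2.85, SE 0.28, adjusted p = 4.4e-04 from limma). *Mcm6*, a subunit of the replicative helicase, fell from 1958 and 2055 to 426 and 507 CP20M. For all 9 genes the 2 libraries of unsorted WT crypts also lay above both HE pools, as they did for 7403 of all 16355 genes. The HE pools are those that gave the call, so that this is not a separate test of it.

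The list of cell division genes showed the same direction with a weaker call. All 20 genes were lower in both HE pools than in both Epcam+ve libraries, against 33.1% of all genes. The median log2 fold change of the 20 was -2.60, and limma called 1 of them and edgeR 12. *Mki67*, the common marker of cycling cells, had 14526 and 13211 CP20M in the Epcam+ve libraries and 4304 and 1201 in the HE libraries (adjusted p = 0.0068 from limma, 4.1e-04 from edgeR). *Cdk1*, the mitotic kinase, had 626 and 730 against 47 and 14 CP20M. The values of HE pool 2 were several-fold under those of pool 1 for both genes. Stem cell genes had lower values without a call, with 11 of 11 tested fold changes below 0, a median of -1.51 and 0 calls by limma or edgeR (7 of 11 at an unadjusted p under 0.05 from limma, against 6086, or 37.2%, of all 16355 genes). *Smoc2* had 689 and 689 CP20M against 196 and 54, and *Lgr5*, the receptor that marks crypt stem cells, 590 and 874 against 426 and 121.

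Of the 28 genes, 6 belonged to the mitochondrial genome or to its nuclear copies, *mt-Atp6*, *mt-Atp8*, *mt-Co2*, *mt-Co3* and the unprocessed pseudogenes *Gm28439* and *Gm10222* of chromosome 1, between which the counting could have split reads. *mt-Atp6*, a subunit of ATP synthase, fell from 11451 and 13376 CP20M to 956 and 1147. In WT crypts the same gene had 408 and 283 CP20M, under the HE libraries. This order held for all 6 genes, and for 4915 of all 16355 genes. For the 6 genes it was the Epcam+ve libraries that stood apart from both other kinds of library. The 13 mitochondrial protein genes together had a median log2 fold change of -0.80, with 4 called lower. All 13 were lower in both HE pools, against 33.1% of all genes. The abundant *mt-Co1* had 561899 and 536553 against 420082 and 264056 CP20M and was not called.

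The other 13 genes called lower were of mixed kinds. *Klk1*, a protease of the colon epithelium, fell from 11424 and 11917 to 1796 and 1361 CP20M (log2 fold change -2.89, SE 0.19), and WT crypts had 16588 and 12734. *Spink4*, a protease inhibitor of goblet cells, fell from 8993 and 11342 to 1186 and 1627 CP20M, with 8548 and 7158 in WT crypts. *Acpp*, an acid phosphatase, fell from 573 and 617 to 12 and 14 CP20M, 1 read in each pool. For 3 of the 13, WT crypts did not lie above the HE libraries, which was so for 8952 of all 16355 genes. *Lpo*, a peroxidase, had 8349 and 7962 CP20M in the Epcam+ve libraries, 461 and 467 in the HE libraries and 544 and 435 in WT crypts. *Krt14*, a keratin of squamous epithelium, had 662 and 668, then 35 and 27, and then 27 and 10. *Edn1* (endothelin-1) had 1457 and 1439, then 196 and 94, and then 134 and 236. Thus the 6 mitochondrial genes and these 3, 9 of the 28, were high in the sorted cells of the 1 WT mouse and not in WT crypts.

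**Figure D5:**
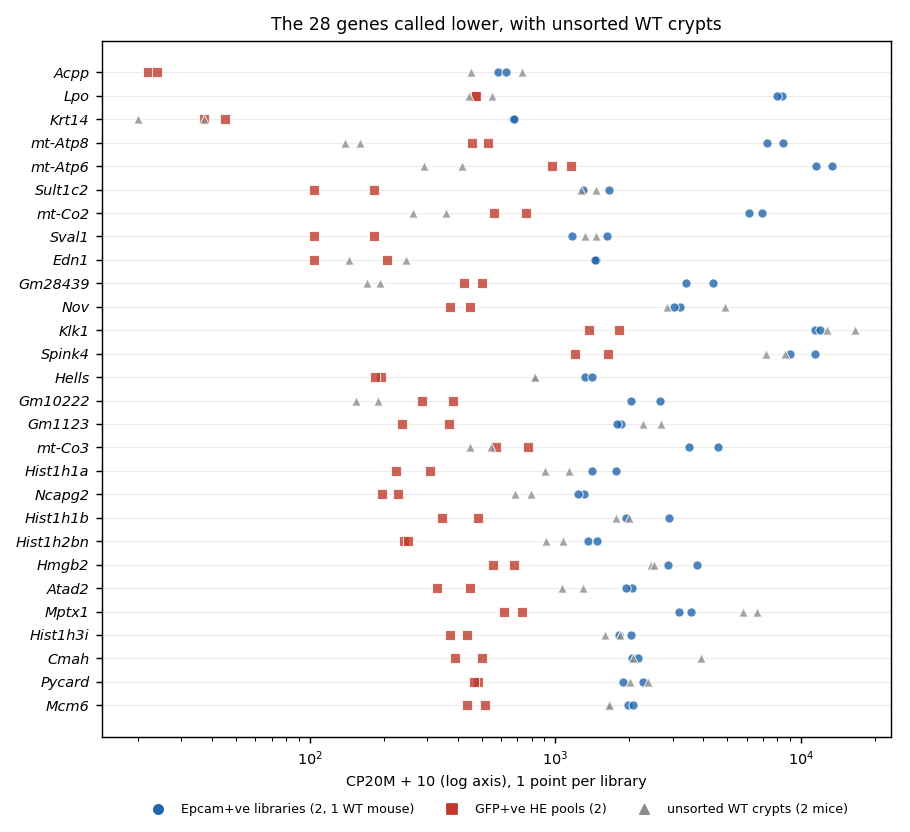
CP20M + 10 on a log axis for the 28 genes called lower, 1 point per library, with blue circles for the 2 Epcam+ve libraries, red squares for the 2 HE pools and grey triangles for the unsorted crypts of 2 WT mice. Both grey triangles lie above both red squares for 19 genes, and not for 9, among them *Lpo*, *Krt14*, *Edn1* and *mt-Atp6*. Over all 16355 genes both crypts lay above both HE pools for 7403.

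Markers of the absorptive and goblet lineages had lower values in the HE libraries and were seldom called. Of 15 colonocyte genes, 12 lay below both Epcam+ve libraries without overlap, against 33.1% of all genes. The median log2 fold change of the 15 was -1.56, and limma called 0 lower, edgeR 2. *Car1* had 33657 and 13482 CP20M in the HE libraries, and *Slc26a3*, the chloride exchanger of colonocytes, had 2233 and 574 against 5775 and 3904. The other way went 2 of the 15, which lay above both Epcam+ve libraries without overlap, and of these only *Krt20* was called. This keratin of differentiated epithelial cells rose from 4434 and 3822 to 24878 and 31364 CP20M (log2 fold change 2.76, SE 0.19, adjusted p = 6.2e-05 from limma). Of 12 goblet genes, limma called 2 lower and edgeR 3, with a median of -1.75. *Muc2* remained at 111913 and 53833 CP20M in the HE libraries. Reads of goblet and colonocyte genes were therefore still present in the sorted GFP+ve cells, and their part in the other results was not tested. Of 12 defence genes tested, 11 lay below without overlap, against 33.1% of all genes. The median of the 12 was -2.0, and limma called 1 (*Lpo*) and edgeR 3. *Reg3b*, an antimicrobial lectin, had 1466 and 1223 CP20M against 127 and 254.

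Ribosomal protein genes had lower values as a group without a call. Of 81, 79 lay below both Epcam+ve libraries, against 33.1% of all genes. The median log2 fold change was -1.04, and the 81 genes took 2.30% and 2.54% of the Epcam+ve libraries against 1.25% and 1.10% of the HE libraries. None passed the threshold of 2 on the log2 scale in limma or edgeR (78 of 81 at an unadjusted p under 0.05 from limma, against 37.2% of all genes). Rescaling of the libraries by median-of-ratios or to the total without mitochondrial genes left this median between -1.10 and -0.99. Notch pathway genes had a median of -0.45, with 0 called by limma (7 of 15 at an unadjusted p under 0.05, against 37.2% of all genes) and 1 lower by edgeR. That gene was *Hes1*, the Notch target that holds back endocrine fate, at 1654 and 1839 CP20M in the Epcam+ve libraries and 599 and 134 in the HE libraries. Of 24 tested *Hox* genes none was called by limma (9 of 24 at an unadjusted p under 0.05, near the 37.2% of all genes) or edgeR, with a median of 0.45. *Hoxb9*, a posterior gene, had 1627 and 1459 CP20M against 5167 and 5534 in the HE libraries at an adjusted p of 4.7e-04 from limma, with a log2 fold change of 1.79 under the threshold.

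Markers of other cell types that a sort could hold differed by list. Of 13 leukocyte genes 2 passed the filter (*Itgam*, listed under 2 gene identifiers, was taken once, under the identifier with more reads in the HE libraries). The summed level of all 13 was 208 to 234 CP20M in the Epcam+ve libraries and 202 to 212 in the HE libraries, with *Cd3e*, *Adgre1* and *Laptm5* at 0. Of 10 genes of enteric neurons and glia 1 passed, with sums over all 10 of 94 to 117 and 152 to 176 CP20M, and *Hand2* and *Sox10* at 0. The stromal and endothelial list summed to 745 to 806 CP20M in the Epcam+ve libraries and 4573 to 5215 in the HE libraries, but 2 genes made this difference. *Vim* rose from 242 and 206 to 2682 and 3481 CP20M (log2 fold change 3.72, SE 0.25, adjusted p = 6.2e-05 from limma), and *Pecam1* had 126 and 340 against 1496 and 1734, called by edgeR alone. The defining endothelial gene *Cdh5* and the stromal gene *Lum* had no read in any of the 4 libraries, and *Col1a1* had 12 and 0 CP20M in the HE libraries. The tuft cell list summed to 1679 to 1918 CP20M in the Epcam+ve libraries and 327 to 497 in the HE libraries, with 1 of 7 tested genes (*Dclk1*) called lower, by edgeR.

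Genes of dissociation stress and immediate early response differed between the groups. Of 18 tested, 16 were above without overlap in the HE libraries, against 30.4% of all genes. Limma called 3 of the 18 and edgeR 6, and the median log2 fold change was 1.26. The heat shock genes *Hspa1a* and *Hspa1b* had 170 and 134 and 242 and 247 CP20M in the Epcam+ve libraries and 5627 and 3734 and 5685 and 5294 in the HE libraries. WT crypts, which were not sorted, had 3563 and 2021 and 6924 and 3999. *Hspa1b* was the 1 gene of the 259 for which WT crypts did not both lie below the HE libraries. Over all 16355 genes both crypts lay below both HE pools for 4915. The early gene *Fosb* had 5775 and 4233 CP20M in the Epcam+ve libraries, 19021 and 19696 in the HE libraries and 176 and 195 in WT crypts, so that it was high in both kinds of sorted cell. The part of handling in the other results was not tested. None of 5 sex-linked genes was called by limma or edgeR (2 of 5 at an unadjusted p under 0.05 from limma, near the 37.2% of all genes). *Ddx3y* and *Uty* of the Y chromosome had 1404 and 1490 and 1368 and 1141 CP20M in the Epcam+ve libraries and 1865 and 2507 and 1784 and 1987 in the HE libraries. *Kdm5d* had 1440 and 1274 against 1404 and 1121, and *Xist* had 93 to 155 CP20M in the 4 libraries.

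Genes close to *Olfr78*, where the HE mice carry the knock-in, were followed as a list. Of 141 genes within 1 Mb, 28 were tested, and the median log2 fold change was -0.08. Limma called 2 of the 28 higher and 26 not, and edgeR called 4 higher, against 1.58% and 3.56% of all genes. The 2 called by limma were *Olfr78* itself, which defined the sort, and the related receptor gene *Olfr558* (chromosome 7, 102702215 to 102712064). The others called by edgeR were *Olfr560* (chromosome 7, 102751818 to 102759366), from 54 and 21 to 1117 and 494 CP20M, and *Trim68* (chromosome 7, 102677582 to 102687327), from 161 and 206 to 1059 and 827 CP20M. *Olfr560* lies within the span of *Olfr78* on the same strand, so that the reads of the 2 genes cannot be told apart with certainty.

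Partners of odorant receptors in olfactory neurons were followed as well. Of 16 listed, 8 were tested and none was called by limma or edgeR (3 of 8 at an unadjusted p under 0.05 from limma, near the 37.2% of all genes), with a median log2 fold change of 0.31. *Gnal*, the olfactory G protein, had 278 and 196 CP20M in the Epcam+ve libraries and 311 and 67 in the HE libraries, with overlap. *Adcy3*, its adenylyl cyclase, had 99 and 42 against 70 and 41. *Cnga2*, *Cnga4*, *Ano2*, *Rtp1* and *Rtp2* had no read in any of the 4 libraries. *Reep6*, a chaperone of membrane proteins, had 1207 and 1151 CP20M against 3821 and 4361 in the HE libraries (adjusted p = 5.8e-04 from limma), with a log2 fold change of 1.78 under the threshold.

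Libraries that played no part in the comparison gave another view of the called genes. GFP+ve pools of 4 *Olfr78* knockout (KO) mice, 2 pools, were set against the unsorted crypts of 2 WT mice, without a test, since the sort and the genotype differ and KO pool 1 had only 532702 reads. Whether a crypt mouse is the mouse of the Epcam+ve libraries is not given in the labels. Of the 14837 genes that passed the same filter there, both KO pools lay above both crypts for 2693 (18.2%) and below for 7993 (53.9%). Of the 259 genes called higher in the HE libraries, all passed and 254 lay above, 0 below and 5 overlapped, with a median log2 difference of 3.47 against -0.51 over all genes. Of the 28 called lower, 27 passed, and 16 (59.3%) lay below, 6 above and 5 overlapped. This share was close to the 53.9% of all genes, while the median log2 difference was -1.41, against -0.51 over all genes. By share the genes called lower were thus not set apart in these libraries, and by median they lay lower.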

How the data were processed

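Values of 4 libraries of sorted colon epithelial cells were analysed, with 2 WT crypt libraries and 2 KO pools of the same table for the last comparison. By the methods and labels, paired-end reads were mapped to GRCm38 with STAR and counted per gene with HTSeq (Ensembl release 90), from libraries made with Ovation Solo. The authors deposited the sorted-cell values as a signal, reads per gene scaled to a library total of 20000000 and then rounded up (CP20M). For crypts the authors deposited a score made in the same way. Dividing by the value of 1 read gave whole reads for 99.9% to 100% of the values of the 6 sorted libraries, within the rounding.

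Groups were taken from the titles. Genes with at least 40 CP20M in 2 of the 4 libraries were tested with limma 3.58.1, with a trend of the spread, on log2(CP20M + 10), with Benjamini-Hochberg adjustment over all 16355 genes, an adjusted p under 0.001 and a log2 fold change beyond 2. The design assumed scaled values, and the count tests stayed alternatives. On the recovered reads edgeR 4.0.16 (quasi-likelihood) called 582 genes higher and 175 lower, and DESeq2 1.42.0 called 548 and 143. SE is the standard error from limma. Coordinates are those of GENCODE in GRCm38, and promoters are RefSeq (GRCm38.p6). The tests were tested on simulated reads. The members, the gene lists and the tests were chosen with earlier results of these data known.

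Genes were named by a rule. It took the 10 smallest p-values and the 10 largest fold changes among the calls in each direction, the 10 genes highest in the HE libraries with no read in the Epcam+ve libraries, the 10 with most reads, called genes within 1 Mb of *Olfr78*, the 10 called genes that differ most between the pools, and genes of the lists. Not every gene under the rule is named, and those named outside it are said to be. Where a group had no read, the ratio was set against 3 reads per library, which covers counting error only, as reads without molecular identifiers are not independent molecules. Crypts of the other mouse line were not used here. Some genes are not reported here. Alternatives were other pseudocounts, scalings, filters and tests, the library number as a block, all 6 sorted libraries in 1 fit, and leaving out each library.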

Additional observations from a re-analysis of the deposited data

How the results depend on the processing

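The limits are 2 libraries a group, controls from 1 mouse, and a depth at which 3 reads were worth a mean of 28.8 CP20M in the Epcam+ve libraries and 37.3 in the HE libraries. Against 259 genes called higher and 28 lower, limma called 72 and 5 with a pseudocount of 1 and 439 and 83 with a pseudocount of 40. Without a trend of the spread it called 0 and 0, although 5289 genes had an unadjusted p under 0.05 (edgeR called 582 and 175, DESeq2 548 and 143). All 6 sorted libraries in 1 fit gave 113 and 4. No filter on low values gave 43 lower. With 40 CP20M in all 4 libraries limma called 262 higher, of which 160 were among the 259, and 117 lower. That filter leaves out genes under 40 CP20M in any library, *Amigo2* and *Celf3* among them, which could then not be called. The library number as a block gave 406 and 117, with a correlation of 0.03 between same-numbered deviations over 2 pairs. Leaving out each library in turn gave 307 to 428 higher and 10 to 767 lower. Median-of-ratios scaling gave 268 and 28, and scaling without mitochondrial genes 235 and 28, with the median of all genes at -0.01 and -0.11. Apart from the genes that a filter leaves out, the cause of these differences was not tested.

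The text names 155 genes with a fit, which gave 2196 values under the alternatives. Of these, 1843 kept their direction and side of the threshold, 213 fell under it, 115 came past it and 25, over 9 genes, turned direction. None of the 9 genes was called. The log2 fold change of *Abcc8* was 0.012 with a pseudocount of 40. Median-of-ratios scaling gave 0.029 for *Cadps2* and 0.0025 for *Ghrl*. For *Abcc8*, *Cadps2*, *Ghrl* and *Pts*, edgeR gave 0.28, 0.041, 0.0047 and 0.004, and DESeq2 0.25, 0.046, 0.0092 and 0.0092. Leaving out each library in turn gave -0.92 to 0.83 for *Abcc8*, -0.77 to 0.30 for *Adcy3*, -0.15 to 0.13 for *Cadps2*, -0.045 to 1.92 for *Gcg* and -0.36 to 0.30 for *Ghrl*. The ranges were -1.66 to 0.40 for *Gnal*, -0.27 to 0.051 for *Kdm5d*, -0.11 to 0.023 for *Pts* and -0.14 to 0.30 for *Rab3d*.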

Other observations

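Genes outside the lists, chosen after their values were seen, included further parts of G protein signalling. The inhibitory G protein subunits *Gnao1* and *Gnaz* were called higher by limma, from 72 and 42 CP20M in the Epcam+ve libraries to 4546 and 4361 in the HE libraries and from 18 and 0 to 771 and 881. *Rgs4* and *Rgs7*, which shorten G protein signals, rose from 18 and 0 to 1324 and 1934 CP20M and from 9 and 11 to 691 and 854. Adenylyl cyclases other than the olfactory *Adcy3* were called, *Adcy1* from 0 and 11 to 783 and 534 CP20M and *Adcy2* from 63 and 21 to 1542 and 1574, as was the cyclic nucleotide phosphodiesterase *Pde11a*, from 90 and 52 to 1876 and 2974 CP20M. The groups did not overlap for these genes.

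Receptors and ligands outside the lists were called as well. *Npy1r*, a receptor of neuropeptide Y and PYY, rose from 81 and 144 to 1807 and 3161 CP20M (log2 fold change 4.34). *Grm4*, a glutamate receptor, rose from 18 and 31 to 910 and 1361 CP20M (5.05). *Ret*, the receptor of GDNF family ligands, rose from 99 and 52 to 1462 and 1201 CP20M (4.02), and *Klb*, the co-receptor of an endocrine fibroblast growth factor, from 63 and 62 to 1071 and 1174 (3.96). *Bmp2*, a secreted growth factor, rose from 144 and 185 to 3176 and 4761 CP20M (4.49). *Npas4* and *Arc*, genes that neurons induce on activity, rose from 9 and 0 to 587 and 667 CP20M and from 394 and 278 to 4085 and 3348. In the other direction, *Cps1*, an enzyme of the urea cycle, had 2012 and 1973 CP20M in the Epcam+ve libraries and 93 and 0 in the HE libraries, and *Aqp4*, a water channel, 3201 and 2692 against 323 and 54. Both were called lower by edgeR and not by limma, at adjusted p of 0.00312 and 0.00276.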
